A study of Mus musculus with 10 samples.

Results

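The genes described here are 47 genes of mitosis and cytokinesis, the steps in which a cell condenses and separates its copied chromosomes and then divides its cell body. They were chosen by symbol from the annotation of a microarray, with 1 probe set per gene, the brightest among those listed with 1 symbol. Earlier results of these data were known when the list was made. Shares of the list set beside shares of all genes are therefore descriptive. The measured genes numbered 45 of the 47, among 22180 genes on the array. Ccnb1, a B-type mitotic cyclin, had no probe set listed with its symbol. Ncapg, a condensin subunit, had only a probe set listed with several symbols. Both have no value here. By role, 5 were genes of cyclin-CDK control, 5 mitotic kinases, 4 of the chromosomal passenger complex, 4 of the spindle checkpoint, 6 of the centromere and kinetochore, 7 spindle motors and microtubule proteins, 5 of chromosome structure and condensin, 3 of anaphase onset and 6 of the central spindle and cytokinesis.

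RNA was measured in the plantaris, a fast muscle of the mouse hind limb, of male C57BL/6 mice; the labels give no age. Overload was produced by synergist ablation, in which the muscles that share the plantaris's work are removed or cut so that the plantaris carries their load. The 5 groups were 10 d of overload with inhibition of PDGF (platelet-derived growth factor) signalling, 10 d of overload without an inhibitor, 3 d of overload with the PDGF inhibitor, 3 d of overload without it, and muscle with neither. Each group had 2 pools, each of equal amounts of RNA from 4 muscles and hybridised to 1 array. No source used here names the inhibitor or its dose. The labels do not include a group that received the inhibitor without overload. No label says which animals entered which pool, so p-values measure the spread between these pools.

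Values are log2 expression values, so that 1 unit is a doubling of signal, and levels are compared between pools for the same gene and never between genes. A gene was called when its p-value, from a limma fit over all 10 arrays and adjusted over the 22180 genes, was below 0.05, and errors after a log2 change are standard errors of that fit. The 2 pools of each group correlated at 0.989 to 0.992 over all genes. Markers of skeletal muscle fibres were high in every pool, with Acta1, the skeletal muscle actin, between 12.22 and 12.37 log2 units. The first of the 3 d overload pools stood apart in markers of granulocyte precursors. Elane read 5.21 and Mpo 5.02 log2 units there, against at most 1.75 in the other 9 pools, and the 5 markers of that list averaged 3.93 there and 1.27 to 1.75 elsewhere. The mean level of the 45 mitosis genes was 5.14 in that pool and 4.97 in the second 3 d overload pool. The main counts of called genes at 3 d of overload, at 10 d against 3 d and for the inhibitor are therefore also given without that pool; single genes' values use all pools.

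Mitosis is driven by cyclin A and cyclin B bound to the kinase Cdk1, and by the Aurora and Polo kinases, which together build the spindle and attach chromosomes to it. The spindle checkpoint holds the cell until every chromosome is attached. The anaphase-promoting complex then destroys cyclin B and securin, separase cuts cohesin, and the central spindle directs the cut between the daughter cells. The nuclei of adult muscle fibres do not divide, and dividing cells in overloaded muscle are known to include satellite cells, fibroblast-lineage cells, endothelial cells and macrophages. In whole-muscle RNA, fewer cells of a type and less RNA per cell cannot be told apart.

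At 3 d of overload nearly the whole set was higher than in muscle without overload. Of the 45 genes, 43 rose and none fell, whereas 9.31% of all genes rose. The median change was 2.41 on the log2 scale, or 5.33-fold, beside a median of -0.04 over all genes. Changes ran from 0.74 for Aurka to 4.59 for Mki67, the proliferation marker Ki-67, and 43 genes were over 2-fold, 31 over 4-fold and 13 over 8-fold higher. Aurka (log2 0.74 ± 0.25, adjusted p = 0.0789) and Nek2 (log2 1.12 ± 0.35, adjusted p = 0.0622), kinases of the centrosome, were the pair not called. Both 3 d pools lay above both no-overload pools for all 45 genes, as they did for 25.1% of all genes. Without the first 3 d overload pool 39 genes rose, the median was 2.28, and 42 genes were over 2-fold, 29 over 4-fold and 13 over 8-fold higher. Of those 39, the passenger complex held 3 of 4, the spindle checkpoint 2 of 4 and the spindle motors 6 of 7, and the other role groups had as many calls as with all pools.

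By 10 d the genes stood lower than at 3 d, and 26 were still called above muscle without overload. Against no overload, those 26 of the 45 rose and none fell, beside 3.9% of all genes rising, with a median of 1.17, or 2.25-fold. Aurka was the gene with a negative change, and 3 of the 45 were negative with arrays scaled to a common median over the genes. Against 3 d of overload, 31 fell and none rose at 10 d, beside 3.38% of all genes falling, and both 10 d pools lay below both 3 d pools for all 45 genes, as for 24.2% of all genes. The median change at 10 d against 3 d was -1.34, a 2.53-fold lower level, and ran from -2.73 for Cks2 to -0.33 for Cenpa. These comparisons share arrays, since the 3 d and the 10 d pools are each set against the same no-overload pools. The same 3 d overload pools also serve in the rise at 3 d, the fall by 10 d and the inhibitor comparison at 3 d. Those results are therefore not independent of each other. The count against no overload depended on single pools, being 12 without the second 10 d overload pool, 12 without the first no-overload pool and 15 without the second. The count of genes lower at 10 d than at 3 d was 11 without the first 3 d overload pool, where the median was -1.29, 18 without the second and 16 without the first 10 d overload pool.

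With the PDGF inhibitor, every one of the 45 genes had a lower mean than overload alone at 10 d and at 3 d. The median was -0.83, or 1.78-fold lower, at 10 d, and -0.98, or 1.97-fold lower, at 3 d, beside medians over all genes of 0.01 at 10 d and 0.03 at 3 d. At 10 d 3 fell, Aspm, Top2a and Prc1, beside 0.0812% of all genes, and 30 had an unadjusted p below 0.05 in the lower direction, beside 6.25%. At 3 d the limma test called none of them, as it called 0% of all genes in either direction. There 37 of the 45 had an unadjusted p below 0.05 in the lower direction, as did 4.48% of all genes. Without the first 3 d overload pool fewer of the 45 had such a p, and the median at 3 d was -0.80. In that fit 14 genes were over 2-fold lower at 3 d, against 19 with all pools. None of the 45 had a higher mean with the inhibitor there. Averaged over both times, the inhibitor effect was called for 14 genes, all lower, beside 0.225% of all genes lower. The 2 inhibited pools lay below the 2 overload pools for 39 of the 45 genes at 10 d and for 44 at 3 d, as they did for 19.5% of all genes at 10 d and 17.7% at 3 d. With arrays scaled to a common median over the genes, 44 of the 45 had a lower mean at 10 d and 1 a higher one. The genes whose pools overlapped were Aurka, Nek2, Ttk, Spc25, Nusap1 and Ube2c at 10 d, and Cdca8 at 3 d. Many of the 45 also shifted together between 2 pools of the same group. The first pool was the higher for 35 genes in 3 d overload and 32 in inhibited 10 d overload. It was the higher for 17 in 10 d overload, and for 24 each in inhibited 3 d overload and without overload. The 45 genes are therefore not 45 separate results.

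**Figure D1:**
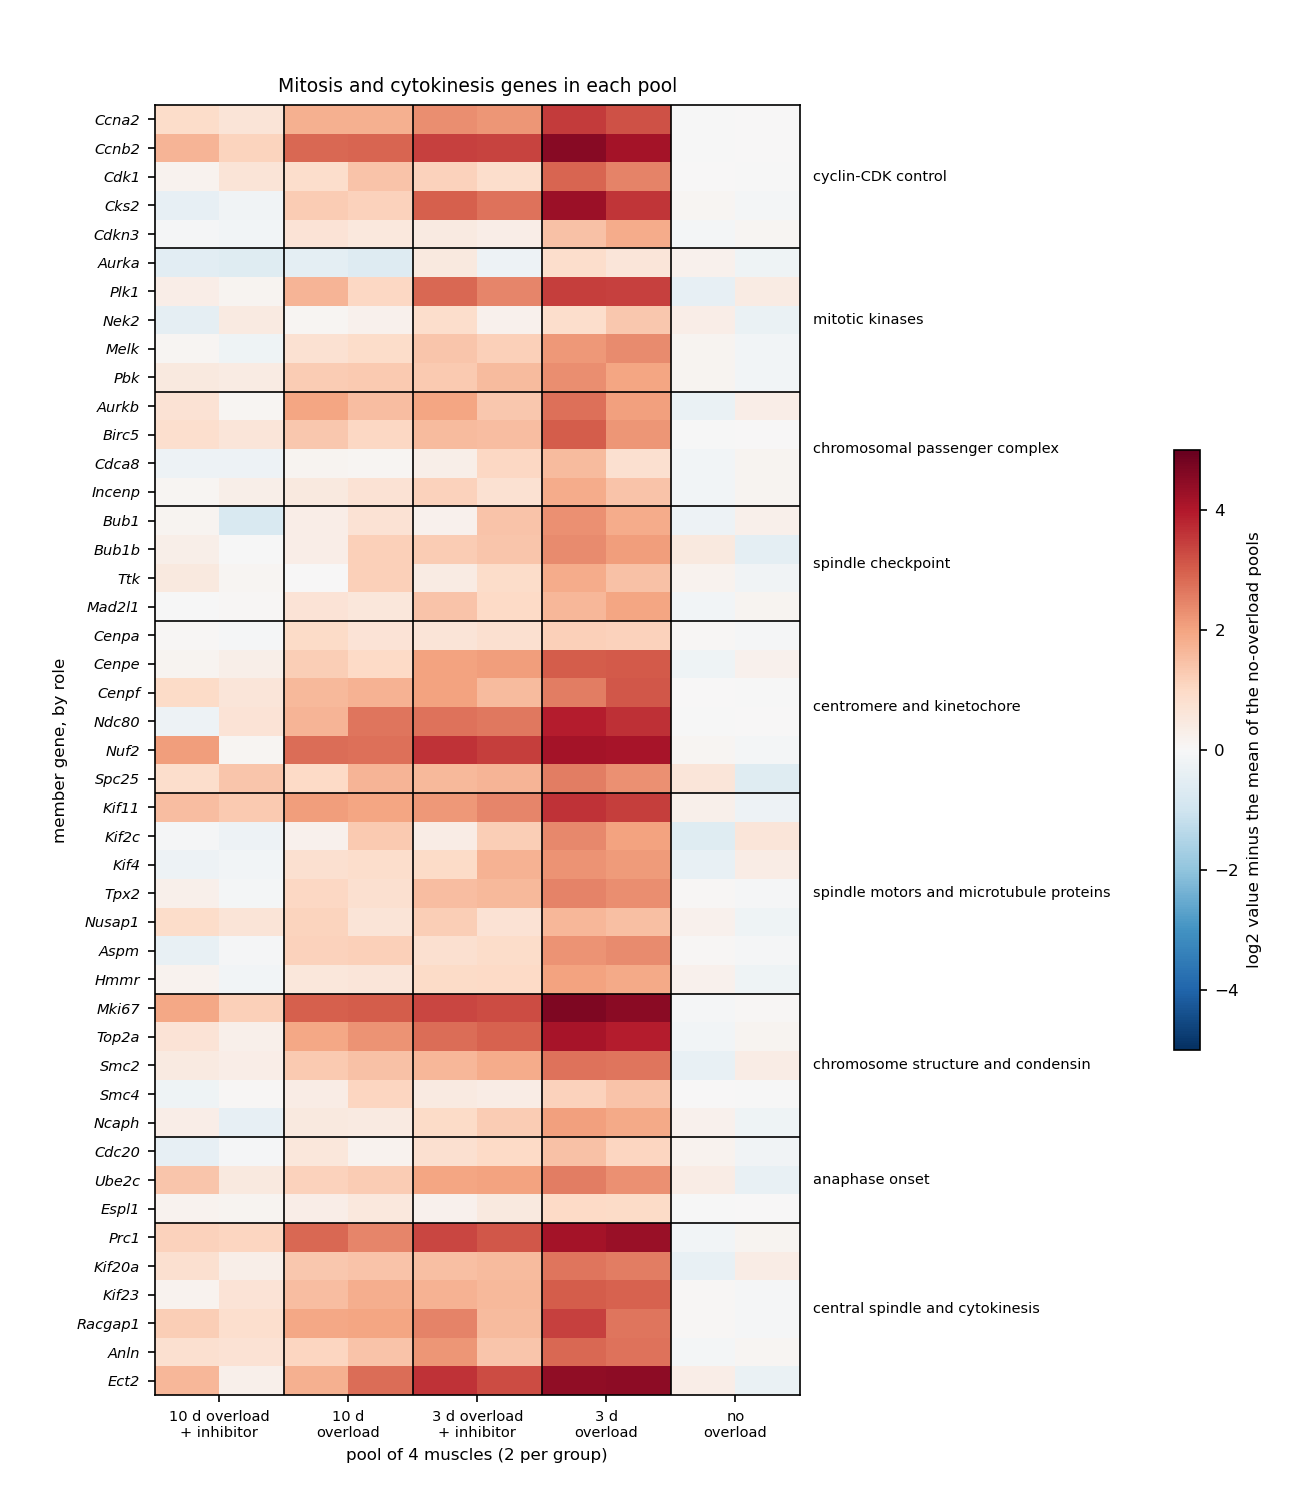
Log2 value of each of the 45 measured mitosis and cytokinesis genes (rows, by role) in each pool of 4 muscles (columns, 2 per group), minus the mean of the no-overload pools of the same gene. The 3 d overload columns are the darkest red for nearly every gene, the inhibited 3 d and the 10 d overload columns are paler, and the inhibited 10 d columns are nearest to no overload.

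The genes of cyclin-CDK control had the highest median of the 9 role groups at 3 d, 3.34 on the log2 scale, or 3.19 without the first 3 d overload pool. Ccnb2 is a B-type cyclin, Ccna2 the cyclin of S phase and mitotic entry, Cks2 a small subunit that docks on the kinase, Cdk1 the mitotic kinase itself and Cdkn3 a phosphatase that acts on Cdk1. Ccnb2 read 4.19 and 3.62 log2 units in inhibited 10 d pools, 5.36 and 5.39 in 10 d overload pools, 5.91 and 5.86 in inhibited 3 d pools, 7.04 and 6.66 in 3 d overload pools and 2.47 and 2.52 in no-overload pools. Ccna2 read 3.74 and 3.48 log2 units in inhibited 10 d pools, 4.60 and 4.61 in 10 d overload pools, 5.14 and 5.02 in inhibited 3 d pools, 6.31 and 6.01 in 3 d overload pools and 2.79 and 2.85 in no-overload pools. Cks2 read 0.82 and 1.06 log2 units in inhibited 10 d pools, 2.52 and 2.38 in 10 d overload pools, 4.25 and 3.95 in inhibited 3 d pools, 5.53 and 4.82 in 3 d overload pools and 1.35 and 1.14 in no-overload pools. For these 3 genes both 3 d overload pools were the highest of all pools, and Cks2 in the inhibited 10 d pools was lower than in either no-overload pool. A dimmer probe set of Cks2 went the other way there. It read 1.75 and 1.82 log2 units in inhibited 10 d pools and 1.28 and 1.10 in no-overload pools. Cdk1 read 2.24 and 2.71 log2 units in inhibited 10 d pools, 2.95 and 3.48 in 10 d overload pools, 3.21 and 2.95 in inhibited 3 d pools, 4.95 and 4.55 in 3 d overload pools and 2.06 and 2.05 in no-overload pools. Cdkn3 read 2.26 and 2.20 log2 units in inhibited 10 d pools, 3.03 and 2.86 in 10 d overload pools, 2.77 and 2.68 in inhibited 3 d pools, 3.81 and 4.19 in 3 d overload pools and 2.25 and 2.41 in no-overload pools. The 3 d overload pools of Cdk1 and Cdkn3 were again the highest, and for both genes the inhibited 3 d pools were closer to the 10 d overload pools than to the 3 d overload pools.

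At 3 d Ccnb2 rose 20.5-fold (log2 4.36 ± 0.20, adjusted p = 2.83e-05), Cks2 15.3-fold (log2 3.94 ± 0.24, adjusted p = 7.1e-05) and Ccna2 10.1-fold (log2 3.34 ± 0.16, adjusted p = 2.83e-05). Cdk1 rose 6.47-fold (log2 2.69 ± 0.24, adjusted p = 0.000268) and Cdkn3 3.18-fold (log2 1.67 ± 0.16, adjusted p = 0.000387). At 10 d Ccnb2 was still 7.36-fold higher than without overload (log2 2.88 ± 0.20, adjusted p = 0.000817), and 4 of the 5 genes rose, Cdkn3 being the other one (log2 0.61 ± 0.16, adjusted p = 0.0664). Over the 10 fits that each left out 1 pool, the 10 d calls of Ccnb2 and Ccna2 were kept in 10, that of Cdk1 in 7 and that of Cks2 in 6. All 5 fell between the times, and 3 of the 5 without the first 3 d overload pool; Cks2 was 6.63-fold lower at 10 d than at 3 d (log2 -2.73 ± 0.24, adjusted p = 0.0022). The mean inhibitor effect was called for all 5, from -1.29 for Cks2 (adjusted p = 0.028) to -0.99 for Cdkn3 (adjusted p = 0.0218). Cks2 had 4 probe sets, of which 3 held identical values, and the other, dimmer one changed by 1.94 at 3 d of overload, by -0.31 with the inhibitor at 10 d by -0.48 with it at 3 d and by -1.04 at 10 d against 3 d.

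Among the mitotic kinases, 3 of 5 rose at 3 d and the other two were Aurka and Nek2. Plk1 is the Polo kinase of mitotic entry and spindle assembly, and Melk and Pbk are kinases whose RNA is abundant in dividing cells. Plk1 read 2.27 and 2.09 log2 units in inhibited 10 d pools, 3.65 and 3.00 in 10 d overload pools, 4.80 and 4.40 in inhibited 3 d pools, 5.39 and 5.37 in 3 d overload pools and 1.52 and 2.37 in no-overload pools. Melk read 2.13 and 1.80 log2 units in inhibited 10 d pools, 2.79 and 2.94 in 10 d overload pools, 3.42 and 3.20 in inhibited 3 d pools, 4.20 and 4.40 in 3 d overload pools and 2.14 and 1.90 in no-overload pools. Pbk read 2.54 and 2.47 log2 units in inhibited 10 d pools, 3.31 and 3.34 in 10 d overload pools, 3.34 and 3.63 in inhibited 3 d pools, 4.37 and 4.01 in 3 d overload pools and 2.17 and 1.92 in no-overload pools. All 3 were highest in the 3 d overload pools, and for Plk1 and Melk the inhibited 10 d pools overlapped the no-overload pools. At 3 d Plk1 rose 10.8-fold (log2 3.44 ± 0.31, adjusted p = 0.000271), Melk 4.85-fold (log2 2.28 ± 0.17, adjusted p = 0.000171) and Pbk 4.42-fold (log2 2.14 ± 0.17, adjusted p = 0.000189), and the same 3 rose at 10 d, Plk1 by 1.38, Melk by 0.85 and Pbk by 1.28 on the log2 scale. With 1 pool left out, the 10 d call of Pbk was kept in 10 of 10 fits and that of Melk in 6, whereas Plk1 was called in 1, with changes of 0.95 to 1.81 and adjusted p of up to 0.17. The mean inhibitor effect was called for Melk (log2 -0.94 ± 0.12, adjusted p = 0.028). Aurka, the Aurora kinase of the spindle poles, was the one gene of the 45 with a lower mean at 10 d than without overload, with 3.22 and 3.07 log2 units in the 10 d overload pools against 3.94 and 3.49 in the no-overload pools (log2 -0.57 ± 0.25, adjusted p = 0.243).

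The chromosomal passenger complex corrects faulty attachments and later guides cytokinesis. All 4 of its genes rose at 3 d, among them Aurkb, its kinase, Birc5, the survivin subunit, and Incenp, its scaffold. Birc5 read 1.60 and 1.34 log2 units in inhibited 10 d pools, 2.08 and 1.78 in 10 d overload pools, 2.33 and 2.28 in inhibited 3 d pools, 3.78 and 2.93 in 3 d overload pools and 0.72 and 0.77 in no-overload pools. Aurkb read 3.32 and 2.67 log2 units in inhibited 10 d pools, 4.54 and 4.13 in 10 d overload pools, 4.56 and 3.94 in inhibited 3 d pools, 5.35 and 4.64 in 3 d overload pools and 2.24 and 2.92 in no-overload pools. Incenp read 3.11 and 3.31 log2 units in inhibited 10 d pools, 3.50 and 3.72 in 10 d overload pools, 4.16 and 3.78 in inhibited 3 d pools, 4.87 and 4.42 in 3 d overload pools and 2.88 and 3.13 in no-overload pools. The 3 d overload pools of each gene lay above its no-overload pools, and the first 3 d overload pool was the higher of the pair for all 3. Birc5 rose 6.12-fold (log2 2.61 ± 0.25, adjusted p = 0.000411), Aurkb 5.33-fold (log2 2.41 ± 0.36, adjusted p = 0.00238) and Incenp 3.11-fold (log2 1.64 ± 0.21, adjusted p = 0.0012). Aurkb and Birc5 were the genes of the complex that rose at 10 d, Aurkb by 1.76 and Birc5 by 1.18 on the log2 scale. With 1 pool left out, Aurkb was called at 10 d in 7 of 10 fits, with changes of 1.42 to 2.09, and Birc5 in 2, with adjusted p of up to 0.148. The mean inhibitor effect was called for none of the 4, although 3 had an unadjusted p below 0.05 in the lower direction, as had 7.01% of all genes.

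All 4 spindle checkpoint genes rose at 3 d. At 10 d limma called none of them against no overload, and 1 had an unadjusted p below 0.05, as had 20.3% of all genes. Bub1 and Bub1b encode checkpoint proteins of the kinetochore and Mad2l1 the protein that inhibits the anaphase-promoting complex. Bub1b read 2.32 and 2.01 log2 units in inhibited 10 d pools, 2.33 and 3.20 in 10 d overload pools, 3.30 and 3.41 in inhibited 3 d pools, 4.38 and 4.11 in 3 d overload pools and 2.50 and 1.52 in no-overload pools. Bub1 read 2.05 and 1.15 log2 units in inhibited 10 d pools, 2.24 and 2.63 in 10 d overload pools, 2.13 and 3.31 in inhibited 3 d pools, 4.19 and 3.75 in 3 d overload pools and 1.65 and 2.16 in no-overload pools. Mad2l1 read 3.14 and 3.21 log2 units in inhibited 10 d pools, 3.85 and 3.73 in 10 d overload pools, 4.57 and 4.17 in inhibited 3 d pools, 4.80 and 5.14 in 3 d overload pools and 3.01 and 3.31 in no-overload pools. The pools of Bub1 were the most unlike each other here, 1.18 units apart in the inhibited 3 d group. At 3 d Bub1b rose 4.7-fold (log2 2.23 ± 0.35, adjusted p = 0.00337), Bub1 4.18-fold (log2 2.06 ± 0.42, adjusted p = 0.0104) and Mad2l1 3.51-fold (log2 1.81 ± 0.19, adjusted p = 0.00058). The call of Bub1 was kept in 8 of the 10 fits that left out 1 pool, and was lost without the first 3 d overload pool or the first no-overload pool. The inhibitor effect was called for none of the 4 genes at either time or on average, and all 4 had an unadjusted p below 0.05 on average.

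Genes of the centromere and kinetochore, the site where microtubules grip the chromosome, rose at 3 d in 6 of 6 cases and at 10 d in 5. Nuf2 and Ndc80 are subunits of the Ndc80 complex, which binds the microtubule, and Cenpe is a kinesin that moves chromosomes to the spindle's middle. Nuf2 read 3.60 and 1.62 log2 units in inhibited 10 d pools, 4.31 and 4.29 in 10 d overload pools, 5.12 and 4.96 in inhibited 3 d pools, 5.66 and 5.65 in 3 d overload pools and 1.62 and 1.43 in no-overload pools. Ndc80 read 1.67 and 2.61 log2 units in inhibited 10 d pools, 3.61 and 4.60 in 10 d overload pools, 4.66 and 4.56 in inhibited 3 d pools, 5.86 and 5.60 in 3 d overload pools and 1.90 and 1.97 in no-overload pools. Cenpe read 2.65 and 2.82 log2 units in inhibited 10 d pools, 3.74 and 3.52 in 10 d overload pools, 4.51 and 4.58 in inhibited 3 d pools, 5.53 and 5.57 in 3 d overload pools and 2.31 and 2.71 in no-overload pools. The inhibited 10 d pools of Nuf2 were 1.98 units apart, the widest gap of any member in any group, so that 1 of them equalled the higher no-overload pool and 1 lay above both. Nuf2 rose 17.6-fold at 3 d (log2 4.14 ± 0.50, adjusted p = 0.00098), Ndc80 13.9-fold (log2 3.80 ± 0.36, adjusted p = 0.000349) and Cenpe 8.23-fold (log2 3.04 ± 0.17, adjusted p = 5.43e-05). At 10 d the changes were 2.78 for Nuf2, 2.17 for Ndc80 and 1.12 for Cenpe, and these calls were kept in 6, 7 and 9 of the 10 fits that left out 1 pool, in that order. Ndc80 had the lowest value of the set with the inhibitor at 10 d, -1.97, but did not pass (log2 -1.97 ± 0.36, adjusted p = 0.128), whereas Cenpe was called on average (log2 -0.95 ± 0.12, adjusted p = 0.0248).

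All 7 spindle motors and microtubule proteins rose at 3 d and 3 rose at 10 d. Kif11 is the kinesin that pushes the spindle poles apart, Tpx2 activates Aurka on spindle microtubules, and Aspm works at the spindle poles. Kif11 read 3.73 and 3.53 log2 units in inhibited 10 d pools, 4.29 and 4.18 in 10 d overload pools, 4.37 and 4.65 in inhibited 3 d pools, 5.83 and 5.64 in 3 d overload pools and 2.45 and 1.95 in no-overload pools. Tpx2 read 3.76 and 3.41 log2 units in inhibited 10 d pools, 4.53 and 4.28 in 10 d overload pools, 5.05 and 5.10 in inhibited 3 d pools, 5.97 and 5.81 in 3 d overload pools and 3.55 and 3.44 in no-overload pools. Aspm read 1.57 and 1.86 log2 units in inhibited 10 d pools, 3.06 and 3.13 in 10 d overload pools, 2.74 and 2.83 in inhibited 3 d pools, 4.15 and 4.28 in 3 d overload pools and 1.97 and 1.87 in no-overload pools. For Aspm the inhibited pools lay more than a unit below the uninhibited pools of the same day, and its inhibited 10 d pools lay below both no-overload pools. Kif11 rose 11.6-fold at 3 d (log2 3.53 ± 0.20, adjusted p = 5.43e-05), Tpx2 5.26-fold (log2 2.39 ± 0.17, adjusted p = 0.000126) and Aspm 4.89-fold (log2 2.29 ± 0.15, adjusted p = 8.37e-05), and these were the 3 that rose at 10 d. With 1 pool left out, Kif11 and Aspm were called at 10 d in 10 of 10 fits and Tpx2 in 6. Aspm fell with the inhibitor at 10 d (log2 -1.38 ± 0.15, adjusted p = 0.0256) and had the smallest adjusted p among the 45 genes for the mean effect (log2 -1.41 ± 0.10, adjusted p = 0.00867). Tpx2 and Kif11 were also called on average, with adjusted p of 0.04 and 0.0499.

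In the group of chromosome structure and condensin, 5 of 5 genes rose at 3 d and 3 at 10 d. Mki67 coats mitotic chromosomes, Top2a encodes topoisomerase II alpha, which untangles sister DNA, and Smc2 is a core subunit of condensin. Mki67 read 4.55 and 3.83 log2 units in inhibited 10 d pools, 5.62 and 5.66 in 10 d overload pools, 5.97 and 5.89 in inhibited 3 d pools, 7.30 and 7.14 in 3 d overload pools and 2.58 and 2.68 in no-overload pools. Top2a read 3.25 and 2.83 log2 units in inhibited 10 d pools, 4.50 and 4.80 in 10 d overload pools, 5.33 and 5.49 in inhibited 3 d pools, 6.66 and 6.50 in 3 d overload pools and 2.41 and 2.71 in no-overload pools. Smc2 read 3.60 and 3.48 log2 units in inhibited 10 d pools, 4.45 and 4.62 in 10 d overload pools, 4.822 and 4.998 in inhibited 3 d pools, 5.87 and 5.83 in 3 d overload pools and 2.76 and 3.53 in no-overload pools. For Mki67 no 2 of the 5 groups overlapped. Mki67 rose 24.2-fold at 3 d (log2 4.59 ± 0.22, adjusted p = 2.83e-05), Top2a 16.2-fold (log2 4.02 ± 0.20, adjusted p = 2.83e-05) and Smc2 6.51-fold (log2 2.70 ± 0.23, adjusted p = 0.000239). At 10 d Mki67 was 8.08-fold higher (log2 3.02 ± 0.22, adjusted p = 0.000817). Top2a fell with the inhibitor at 10 d (log2 -1.62 ± 0.20, adjusted p = 0.0371), and on average both Top2a (log2 -1.39 ± 0.14, adjusted p = 0.0161) and Mki67 (log2 -1.38 ± 0.15, adjusted p = 0.0218) were lower.

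The 3 genes of anaphase onset rose at 3 d, and none was called at 10 d, where all 3 had positive changes. Ube2c is the enzyme that adds ubiquitin for the anaphase-promoting complex, Cdc20 its activator and Espl1 separase. Ube2c read 4.13 and 3.22 log2 units in inhibited 10 d pools, 3.91 and 4.01 in 10 d overload pools, 4.71 and 4.78 in inhibited 3 d pools, 5.32 and 5.02 in 3 d overload pools and 3.10 and 2.39 in no-overload pools. Cdc20 read 2.73 and 3.08 log2 units in inhibited 10 d pools, 3.72 and 3.33 in 10 d overload pools, 3.95 and 4.14 in inhibited 3 d pools, 4.63 and 4.24 in 3 d overload pools and 3.31 and 3.00 in no-overload pools. Espl1 read 2.65 and 2.63 log2 units in inhibited 10 d pools, 2.81 and 3.02 in 10 d overload pools, 2.71 and 2.97 in inhibited 3 d pools, 3.48 and 3.42 in 3 d overload pools and 2.44 and 2.51 in no-overload pools. Ube2c had overlapping pools with and without the inhibitor at 10 d, and Espl1 spanned the narrowest range of the 3. Ube2c rose 5.36-fold at 3 d (log2 2.42 ± 0.31, adjusted p = 0.00129), Cdc20 2.42-fold (log2 1.28 ± 0.22, adjusted p = 0.00438) and Espl1 1.97-fold (log2 0.98 ± 0.15, adjusted p = 0.00246). Cdc20 had the inhibitor effect nearest to 0 at 3 d, -0.39.

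Genes of the central spindle and cytokinesis rose in 6 of 6 cases at 3 d and at 10 d. Prc1 bundles the microtubules between the separating chromosomes, Racgap1 forms the centralspindlin complex with the kinesin Kif23, and Ect2 activates RhoA to start the cleavage furrow. Prc1 read 3.25 and 3.16 log2 units in inhibited 10 d pools, 4.97 and 4.56 in 10 d overload pools, 5.44 and 5.21 in inhibited 3 d pools, 6.24 and 6.42 in 3 d overload pools and 1.94 and 2.25 in no-overload pools. Ect2 read 3.79 and 2.39 log2 units in inhibited 10 d pools, 3.92 and 4.92 in 10 d overload pools, 5.74 and 5.38 in inhibited 3 d pools, 6.56 and 6.62 in 3 d overload pools and 2.45 and 1.80 in no-overload pools. Racgap1 read 3.19 and 2.77 log2 units in inhibited 10 d pools, 3.88 and 3.92 in 10 d overload pools, 4.44 and 3.54 in inhibited 3 d pools, 5.35 and 4.62 in 3 d overload pools and 2.02 and 1.87 in no-overload pools. Both 10 d overload pools lay above both no-overload pools for each of these 3 genes, and the inhibited 10 d pools of Ect2 were far apart. Ect2 rose 22-fold at 3 d (log2 4.46 ± 0.47, adjusted p = 0.000581), Prc1 18.9-fold (log2 4.24 ± 0.19, adjusted p = 2.83e-05) and Racgap1 8.24-fold (log2 3.04 ± 0.32, adjusted p = 0.000587). The 6 calls at 10 d depended on single pools. With 1 pool left out, Prc1 was called in 10 of 10 fits, Racgap1 in 7 and Ect2 in 3, with changes of Ect2 between 1.80 and 2.79 and adjusted p of up to 0.176. At 10 d Prc1 was 6.35-fold higher (log2 2.67 ± 0.19, adjusted p = 0.000817), and it fell with the inhibitor at that time (log2 -1.55 ± 0.19, adjusted p = 0.0371). On average over both times the inhibitor effect was called for Prc1 (log2 -1.28 ± 0.13, adjusted p = 0.0161) and Kif23 (log2 -1.28 ± 0.13, adjusted p = 0.0161).

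**Figure D2:**
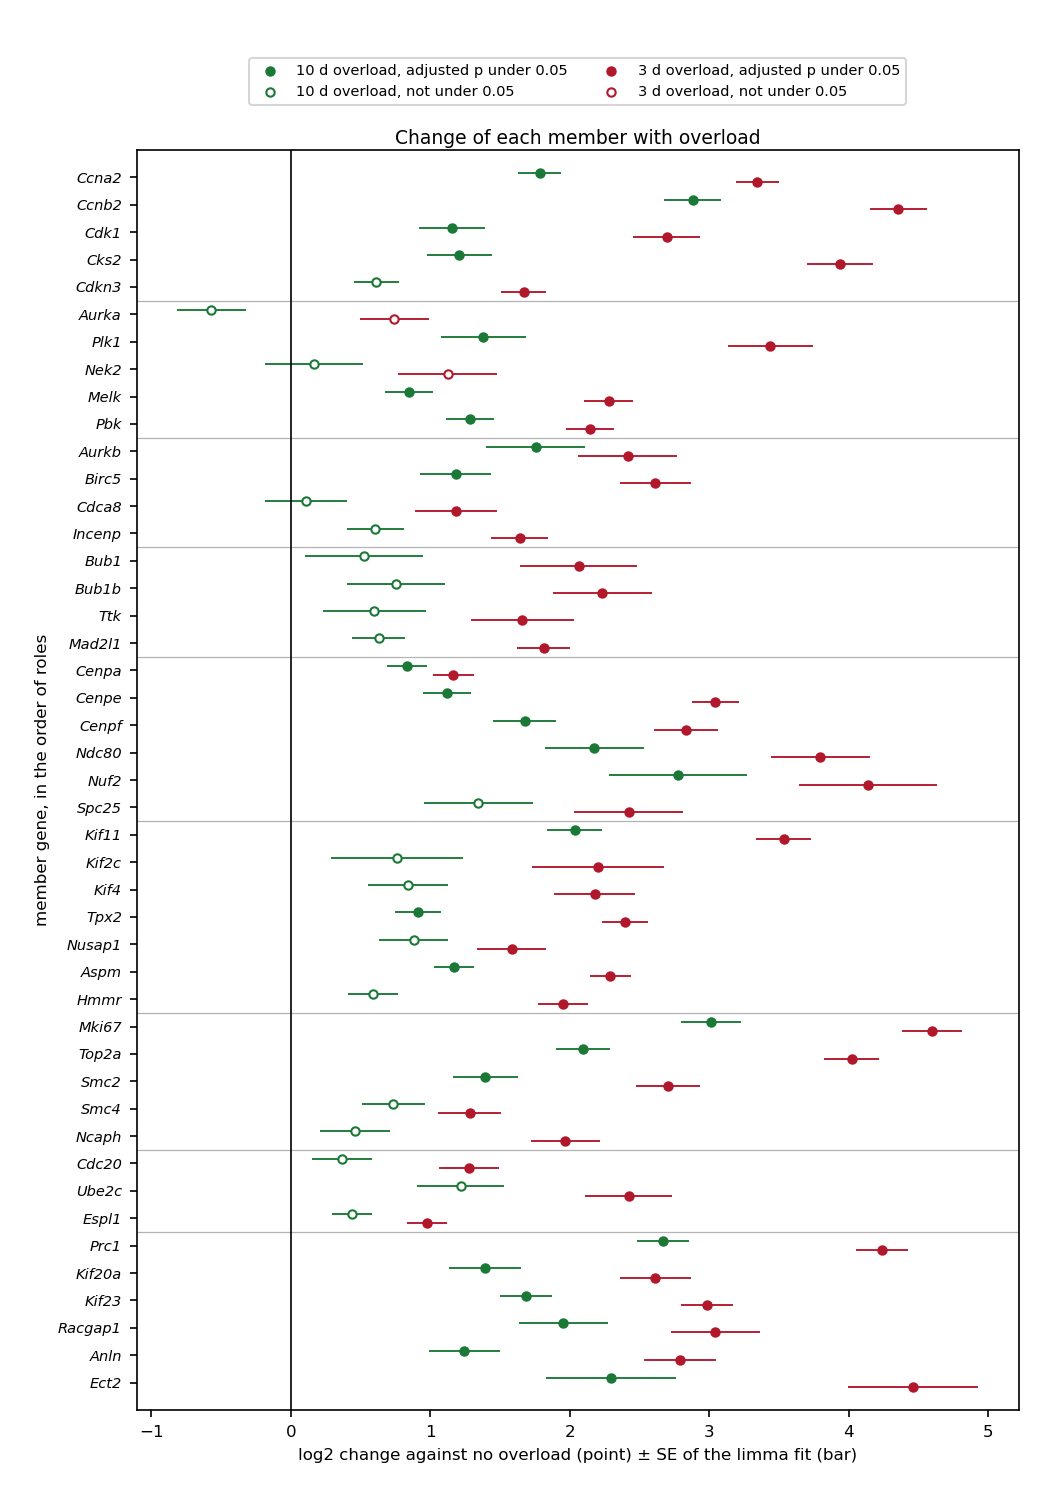
Log2 change of each of the 45 genes at 10 d (green) and 3 d (red) of overload against no overload, with bars for the standard error of the limma fit and filled points for an adjusted p below 0.05; genes run down the page in the order of their roles. The 3 d points lie to the right of the 10 d points for every gene, 43 of the 3 d points and 26 of the 10 d points are filled, and Aurka is the one gene with a 10 d point left of 0.

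Set side by side, the inhibitor changes at 10 d and 3 d were -1.46 and -1.29 for Mki67, -1.62 and -1.17 for Top2a, -1.38 and -1.43 for Aspm, and -1.47 and -0.96 for Ccnb2. Most of the set differed from these genes. The change was less negative at 10 d than at 3 d for 28 of the 45 genes and more negative for 17. Cdk1 had a value of smaller size at 10 d (log2 -0.74 ± 0.24, adjusted p = 0.306) than at 3 d, where it had the lowest value of the set (log2 -1.67 ± 0.24, adjusted p = 0.1). Means were over 2-fold lower with the inhibitor for 13 genes at 10 d and 19 at 3 d. The difference between the inhibitor effects at 10 d and at 3 d was tested itself, and limma called none of the 45 genes and 0% of all genes. Cdk1 (log2 0.93 ± 0.34, adjusted p = 0.708) and Cdkn3 (log2 0.56 ± 0.23, adjusted p = 0.734) were the members with an unadjusted p below 0.05 for that difference, as 6.47% of all genes had in either direction.

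The mean inhibitor effect rested on all 4 overloaded groups and was sensitive to single pools. The 14 genes called became none without the first inhibited 3 d pool, 1 without the second, 2 without the second 10 d overload pool, 4 without the second 3 d overload pool or the second inhibited 10 d pool, 6 without the first 3 d overload pool and 7 without the first inhibited 10 d pool. Without the first 3 d overload pool, the median inhibitor change at 3 d was -0.80, with 14 genes over 2-fold lower. At 10 d the 3 calls became none without either inhibited 3 d pool, either no-overload pool, the second 10 d overload pool or the second inhibited 10 d pool, 1 without the first inhibited 10 d pool, and 6 without the first 10 d overload pool. Over the 10 fits, Aspm was called with the inhibitor at 10 d in 3, and Top2a and Prc1 in 1 each. The mean effect was called for Aspm in 9, Top2a in 7, Ccna2 in 6, Mki67, Prc1 and Cks2 in 5, Ccnb2 and Cdkn3 in 4, Melk, Cenpe and Kif11 in 3, and Tpx2 and Cdk1 in 1.

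**Figure D3:**
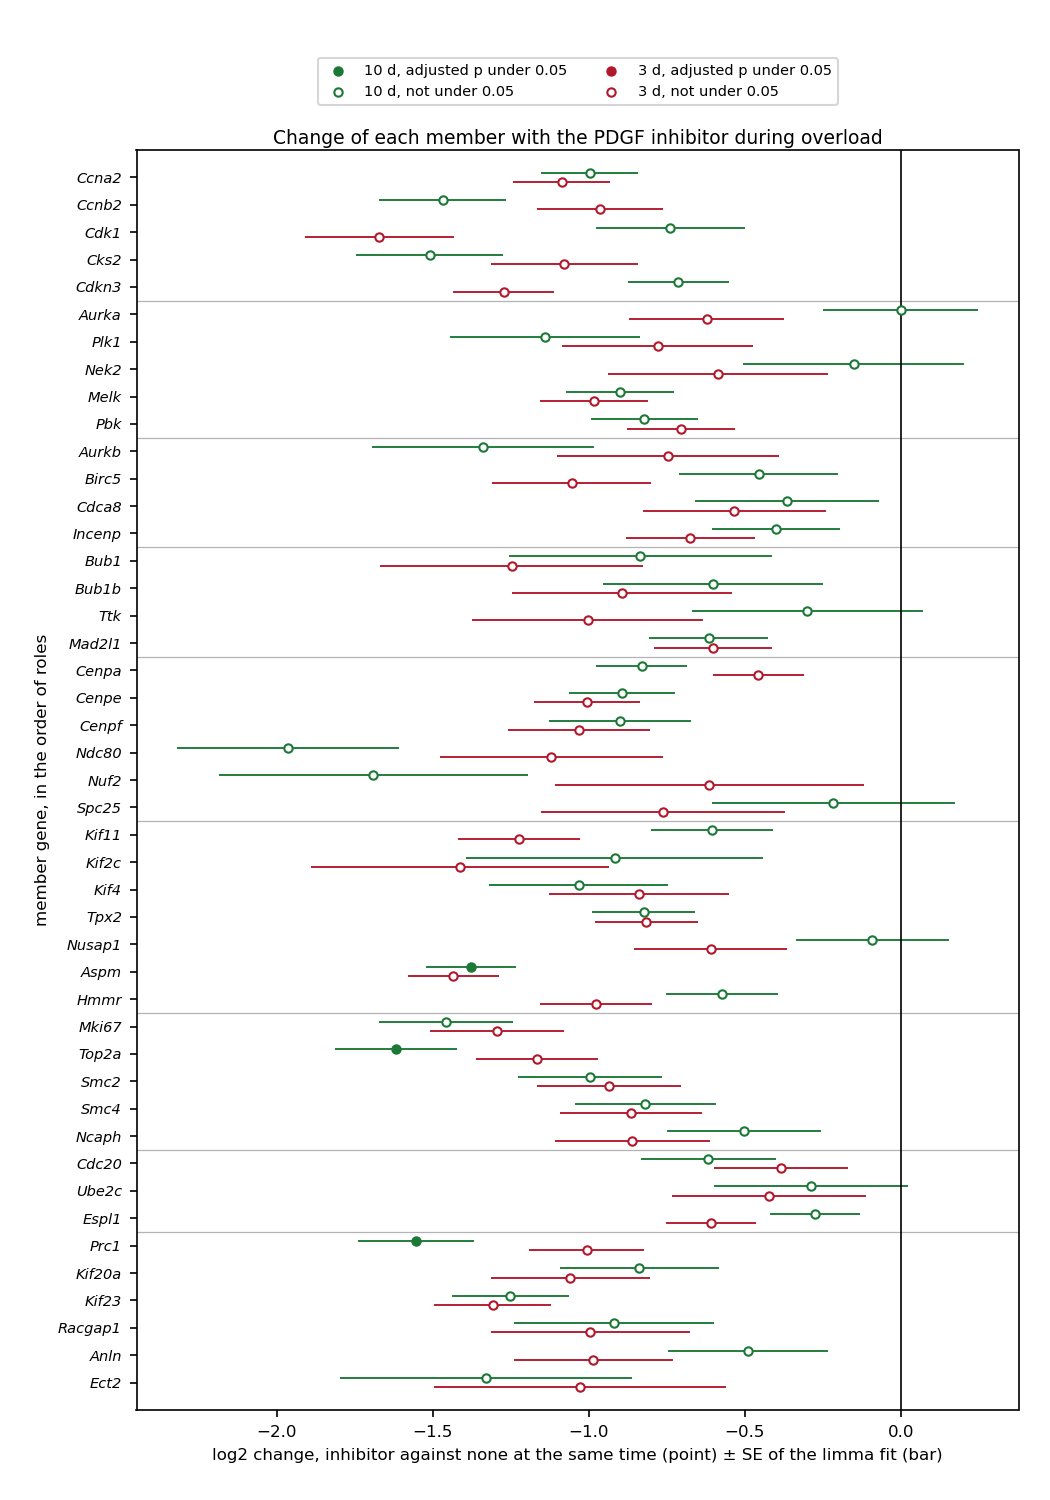
Log2 change of each of the 45 genes with the PDGF inhibitor against overload alone, at 10 d and at 3 d, with bars for the standard error of the limma fit and filled points for an adjusted p below 0.05. All points lie at or left of 0, and the filled points are the 10 d values of Aspm, Top2a and Prc1.

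Overloaded muscle that received the inhibitor was also set against the same no-overload pools. At 3 d 36 of the 45 genes rose and none fell, beside 7.71% of all genes rising, with a median of 1.55, or 2.94-fold. At 10 d 5 rose, beside 1.13% of all genes, with a median of 0.24 and with 33 genes above and 12 below 0. The 5 were Mki67 (log2 1.56 ± 0.22, adjusted p = 0.0152), Kif11 (log2 1.43 ± 0.20, adjusted p = 0.0152), Ccnb2 (log2 1.41 ± 0.20, adjusted p = 0.0173), Prc1 (log2 1.11 ± 0.19, adjusted p = 0.0265) and Ccna2 (log2 0.79 ± 0.16, adjusted p = 0.0497). All 5 were among the 26 genes that rose at 10 d without the inhibitor. Under the inhibitor 25 genes fell at 10 d against 3 d, beside 2.66% of all genes, with a median of -1.07. In the order of group means, all 45 genes were highest in 3 d overload, 33 were lowest without overload and 12 were lowest in inhibited 10 d overload. Cks2 was among those 12 by its brightest probe set but not by its dimmer one. The order 3 d overload, inhibited 3 d overload, 10 d overload, inhibited 10 d overload, no overload held for 28 of the 45. The 5 calls at 10 d became 3 without the second inhibited 10 d pool, 1 without the first no-overload pool, and none without the first inhibited 10 d pool or the second no-overload pool. The 25 calls at 10 d against 3 d under the inhibitor became 8 without the first inhibited 3 d pool, 12 without the second inhibited 10 d pool and 13 without the second inhibited 3 d or the first inhibited 10 d pool.

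The 250 bases before the transcription starts of the 47 listed genes were searched for a pair of motifs known from genes of the late cell cycle. TTTGAA is the core of the cell cycle genes homology region (CHR), which is bound by the MuvB core of the DREAM and B-Myb-MuvB complexes, and CCAAT is the site of the factor NF-Y. Both strands were searched, so TTCAAA and ATTGG count as well. In the sequences shown no CHR overlaps a CCAAT, and in Ube2c a CCAAT on each strand share letters. Windows from RefSeq (GRCm38.p6) matched 40 of the 47 genes, and no window was used for Ccna2, Pbk, Aurkb, Incenp, Tpx2, Smc4 and Kif20a. The 40 include Ccnb1 and Ncapg, which have no expression value here. CCAAT was present in 31 of 40 windows (77.5%), beside 35.6% of 16990 genes named on the array, and 2 or more copies in 20 of 40, beside 11.6% of all. TTTGAA was present in 32.5% beside 14.2%, and both motifs in 30.0% beside 5.17%. The median GC content was 59.4% beside 55.6%. Among 51 other mitosis genes with a window, which the 45 do not include, 41.2% held TTTGAA, 58.8% CCAAT and 29.4% both. Among 35 DNA replication genes with a window, 11.4% held TTTGAA, 57.1% CCAAT and 8.57% both. A match is a string of letters and was not tested as a binding site. The 200 bases before the start are printed for the 11 genes that hold both motifs among those given by pool above, 5′ to 3′ on the gene's strand, with both motifs in capitals; they show how the CCAAT copies are placed relative to the CHR.
Ccnb2, chr9:70421555-70421754, minus strand: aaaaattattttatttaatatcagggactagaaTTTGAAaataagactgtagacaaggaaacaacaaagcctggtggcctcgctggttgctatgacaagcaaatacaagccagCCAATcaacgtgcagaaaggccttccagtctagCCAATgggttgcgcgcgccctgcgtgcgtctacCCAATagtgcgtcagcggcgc
Kif11, chr19:37376182-37376381, plus strand: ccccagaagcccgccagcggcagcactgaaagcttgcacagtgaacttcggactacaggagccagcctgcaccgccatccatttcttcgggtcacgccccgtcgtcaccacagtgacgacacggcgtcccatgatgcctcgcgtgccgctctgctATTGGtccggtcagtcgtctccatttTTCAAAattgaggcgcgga
Mki67, chr7:135716380-135716579, minus strand: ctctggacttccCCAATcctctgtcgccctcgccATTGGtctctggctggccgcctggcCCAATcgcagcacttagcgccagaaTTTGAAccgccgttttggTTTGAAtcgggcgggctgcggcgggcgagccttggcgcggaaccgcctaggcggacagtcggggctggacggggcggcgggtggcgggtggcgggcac
Top2a, chr11:99024190-99024389, minus strand: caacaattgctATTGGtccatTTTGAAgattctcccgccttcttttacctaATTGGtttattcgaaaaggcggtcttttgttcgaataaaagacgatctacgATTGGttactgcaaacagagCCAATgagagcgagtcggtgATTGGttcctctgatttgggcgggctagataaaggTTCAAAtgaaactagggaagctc
Smc2, chr4:52439021-52439220, plus strand: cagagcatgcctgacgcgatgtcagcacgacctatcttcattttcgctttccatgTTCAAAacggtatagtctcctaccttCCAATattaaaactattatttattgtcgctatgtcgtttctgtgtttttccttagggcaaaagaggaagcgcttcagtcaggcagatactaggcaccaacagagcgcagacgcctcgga
Ube2c, chr2:164769729-164769928, plus strand: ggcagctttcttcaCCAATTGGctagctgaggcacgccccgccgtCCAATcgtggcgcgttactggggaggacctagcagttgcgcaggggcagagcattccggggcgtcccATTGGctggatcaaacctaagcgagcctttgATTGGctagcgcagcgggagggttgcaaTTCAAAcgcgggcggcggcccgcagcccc
Cdc20, chr4:118437344-118437543, minus strand: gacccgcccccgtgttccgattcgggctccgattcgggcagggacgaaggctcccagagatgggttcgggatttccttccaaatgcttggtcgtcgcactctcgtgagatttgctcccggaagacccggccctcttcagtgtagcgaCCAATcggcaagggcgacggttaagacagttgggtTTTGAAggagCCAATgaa
Espl1, chr15:102296093-102296292, plus strand: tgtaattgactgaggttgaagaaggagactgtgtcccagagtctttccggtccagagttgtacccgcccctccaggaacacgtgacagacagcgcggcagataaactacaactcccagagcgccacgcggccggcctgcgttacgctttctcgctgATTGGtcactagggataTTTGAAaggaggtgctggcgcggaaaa
Ect2, chr3:27153879-27154078, minus strand: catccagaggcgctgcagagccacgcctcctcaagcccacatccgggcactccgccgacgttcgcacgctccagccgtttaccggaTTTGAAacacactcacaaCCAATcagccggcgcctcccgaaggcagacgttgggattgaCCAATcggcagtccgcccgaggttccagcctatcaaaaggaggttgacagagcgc
Cdkn3, chr14:46760341-46760540, plus strand: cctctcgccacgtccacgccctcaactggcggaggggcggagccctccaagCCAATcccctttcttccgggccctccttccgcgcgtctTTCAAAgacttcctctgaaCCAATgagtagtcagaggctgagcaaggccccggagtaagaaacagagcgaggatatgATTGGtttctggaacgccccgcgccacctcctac
Cdk1, chr10:69352913-69353112, minus strand: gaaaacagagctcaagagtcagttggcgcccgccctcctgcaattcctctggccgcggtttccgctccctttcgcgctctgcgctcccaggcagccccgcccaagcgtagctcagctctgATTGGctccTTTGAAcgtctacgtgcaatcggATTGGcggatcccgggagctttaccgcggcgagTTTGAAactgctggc

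In Ccnb2 the 3 copies of CCAAT begin 87, 54 and 21 bases before the start, and the window of Top2a shows 5 copies and that of Ube2c 5. Mki67, Top2a and Cdk1 show 2 copies of the CHR letters each. The genes shown include Mki67, with a change of 4.59 at 3 d, and Espl1 (0.98) and Cdc20 (1.28), which are near its low end.

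Other mitosis genes, DNA replication genes and G1 genes also had positive medians at 3 d of overload. Of 59 other mitosis genes, 40 rose and 2 fell at 3 d of overload, beside 9.31% of all genes rising, with a median of 1.40. Shcbp1 (2.91), Kif20b (2.67), Ckap2 (2.60) and Kif18b (2.53) changed most. Of 43 DNA replication genes, 22 rose and none fell, with a median of 0.80, led by Rrm2, the ribonucleotide reductase subunit of S phase (2.74), and including the helicase subunits Mcm5 (2.54) and Mcm6 (2.40) and the primase Prim1 (2.18). Of 13 G1 cyclins, kinases and pocket proteins, 5 rose, among them Cdk6 (1.54) and Rbl1 (1.48), and Rbl2 fell (-0.68). All values in brackets are log2 changes. The CDK inhibitor Cdkn1a, which encodes p21, rose (1.27) and Cdkn1b, which encodes p27, fell (-0.69). A list called the MuvB list here held 13 genes of mitotic transcription factors and of MuvB, not all of them parts of MuvB complexes. In it E2f8 (2.86), E2f4 (1.31), Foxm1 (1.03), E2f7 (0.89) and Nfya (0.72) rose and Lin52 (-1.05) fell. Without the first 3 d overload pool, 37 other mitosis genes rose and 1 fell (median 1.36), 17 DNA replication genes rose (median 0.65), 2 G1 genes rose and none fell, 4 genes of the MuvB list rose and 1 fell, 1 CDK inhibitor gene fell and none rose, and 1 subunit of the anaphase-promoting complex rose and none fell. The 12 core subunits of the anaphase-promoting complex had a median of -0.01, with 2 higher and 2 lower, and the 9 cohesin genes one of 0.07, with Smc1a (0.62) higher. Over all 22180 genes 3881 were called at 3 d in either direction, 2066 of them higher. The lone falls in the G1, CDK inhibitor and MuvB lists are therefore not read as particular to those lists. The same holds for the calls among these subunits and cohesin.

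At 10 d fewer of these genes were called. Against no overload 7 of 59 other mitosis genes and 6 of 43 DNA replication genes rose, beside 3.9% of all genes. Of 13 G1 genes 1 rose (Rbl1), and of 7 CDK inhibitors 1 (Cdkn1c). With the inhibitor, the other mitosis genes had medians of -0.32 at 10 d and -0.65 at 3 d, and DNA replication genes of -0.19 at 10 d and -0.29 at 3 d. On average over both times Shcbp1 (-1.27), Kif20b (-0.97) and Arhgap11a (-0.73) fell and no DNA replication gene was called. Without the first 3 d overload pool none of the 59 other mitosis genes was called on average, and their median at 3 d with the inhibitor was -0.57. Foxm1 changed by 0.07 at 10 d and -0.32 at 3 d with the inhibitor, and neither value was called. E2f8, called at 3 d of overload, changed by -0.17 at 10 d and -0.04 at 3 d with the inhibitor.

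Markers of cell types that can divide or enter overloaded muscle are set beside these results; some moved in the same direction as the mitosis genes and some did not, and their part in the results was not tested. All 12 macrophage and monocyte markers rose at 3 d, or 11 without the first 3 d overload pool, and with the inhibitor their medians were -0.57 at 10 d and -0.54 at 3 d. Their mean level was 5.63 to 5.71 log2 units in the inhibited 10 d pools, 5.91 to 6.52 in the 10 d overload pools, 6.89 to 7.14 in the inhibited 3 d pools, 7.46 to 7.77 in the 3 d overload pools and 4.14 to 4.44 in the no-overload pools. Of 8 satellite cell and myoblast markers 6 rose at 3 d, or 3 without that pool, and with the inhibitor their medians were 0.19 at 10 d and -0.24 at 3 d. They averaged 5.42 to 5.48 in the inhibited 10 d pools, 5.19 to 5.60 in the 10 d overload pools, 5.75 to 6.06 in the inhibited 3 d pools, 6.09 to 6.10 in the 3 d overload pools and 4.26 to 4.63 in the no-overload pools. At 10 d 4 of these 8 markers had a higher mean with the inhibitor. The largest changes at 3 d of overload were those of Mymk (4.41) and Myog (3.32). Pax7 read 3.77 and 3.16 log2 units in 3 d overload pools and 2.79 and 3.20 in no-overload pools, and Myf5 4.13 and 5.10 against 3.83 and 4.11. Of 8 fibroblast markers 5 rose at 3 d, or 2 without that pool. All 8 had a higher mean at 10 d than at 3 d, with a median of 0.42 and none called, and a lower mean with the inhibitor, with medians of -0.92 at 10 d and -0.49 at 3 d. They averaged 8.31 in each inhibited 10 d pool, 8.86 to 9.45 in the 10 d overload pools, 8.11 to 8.15 in the inhibited 3 d pools, 8.58 to 8.69 in the 3 d overload pools and 7.53 to 7.54 in the no-overload pools. The 7 neutrophil markers averaged 3.62 to 4.04 in the inhibited 10 d pools and 1.34 to 1.50 in the 10 d overload pools. At 3 d they averaged 2.78 to 3.00 in the inhibited pools, 4.95 in the first overload pool and 1.66 in the second. The first is the pool that stood apart in granulocyte precursor markers. The 4 measured markers of red cell precursors had a median change of -0.04 with the inhibitor at 10 d, 2 above and 2 below 0, none called. Among them Slc4a1 read 6.16 and 5.15 log2 units in the inhibited 10 d pools and 3.04 and 1.55 in the 10 d overload pools, and Tfrc 7.01 and 7.55 against 8.10 and 7.56. The 7 endothelial markers averaged between 7.13 and 7.67 in every pool, and Tie1 was the one called at 3 d, lower (-0.76). Lists for B cell precursors and lymphocytes averaged at most 1.77 in every pool.

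**Figure D4:**
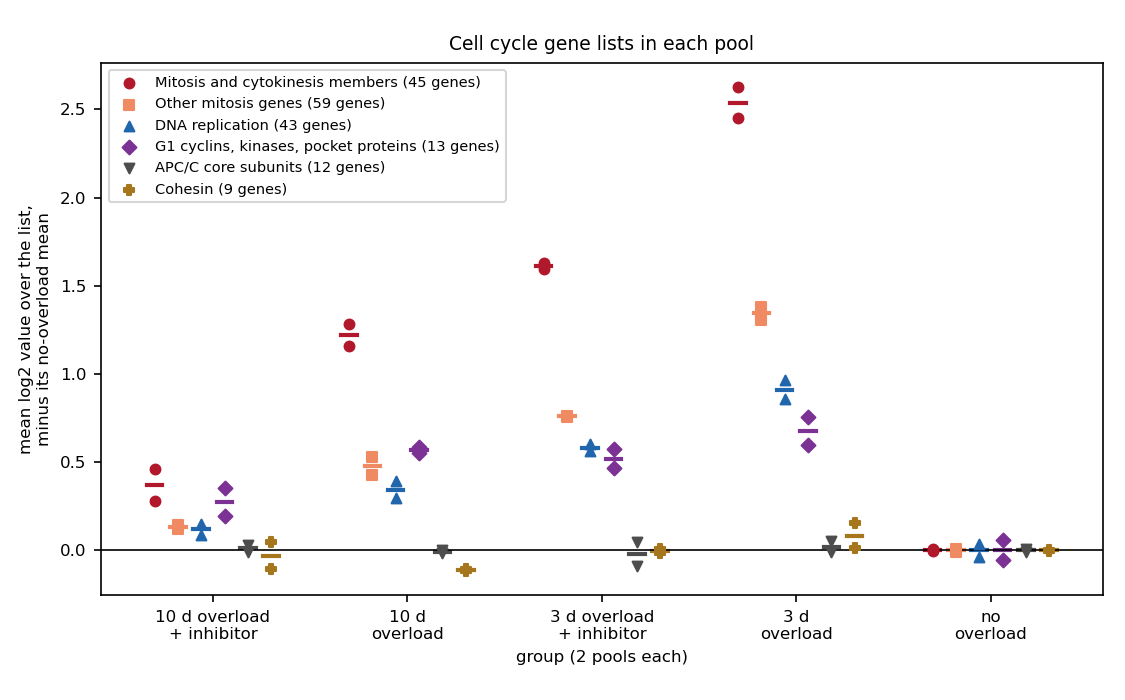
Mean log2 value of the 45 mitosis genes and of 5 other lists of cell cycle genes in each pool (points; short lines are the mean of the 2 pools), minus the mean of the list's no-overload pools, by group from inhibited 10 d overload on the left to no overload on the right. The mitosis genes have the highest group mean among the lists shown in each of the 4 overloaded groups, and subunits of the anaphase-promoting complex and cohesin stay near 0. All lists were chosen with earlier results of these data known, and the CDK inhibitor and MuvB lists are not shown.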

How the data were processed

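The 10 arrays were Affymetrix Mouse Gene 2.1 ST strips, 2 for each of 5 groups. The values used are the log2 expression levels of 41345 probe sets that the authors deposited in a single table. Oligo, RMA and limma are named, with no version, per the submitters' processing notes. RMA subtracts background, quantile-normalizes arrays and summarizes probes on the log2 scale, which compresses changes of dim genes. Values ranged from -0.45 to 12.71, and no detection calls were used. The labels name 2 different labelling kits for every sample, so the kit used is not known here. The number of arrays limits the precision.

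Probe sets listed with 1 symbol (23521) gave 22180 genes. The 1814 probe sets with several symbols and 16010 with none were not used, and 1082 genes with several probe sets were represented by the brightest over all arrays. Differences were tested with limma 3.58.1 in R 4.3.3 on the deposited values, with 1 coefficient per group over all 10 arrays (5 residual and 3.58 prior degrees of freedom) and Benjamini-Hochberg adjustment over the 22180 genes for each of 10 comparisons. The script was tested on simulated data.

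The 47 genes and the other gene and marker lists were chosen with earlier results of these data known. Values by pool are given for up to 3 genes per role with the largest change at 3 d, and for the up to 4 genes with the smallest p in each inhibitor comparison and in 10 d against 3 d, 29 genes in all. From each other list, the up to 4 called genes of largest change are named for a comparison; Nfya, E2f7, Rbl2, Foxm1 and E2f8 with the inhibitor, and single markers, were named after their values were seen. Alternatives were a common median over all probe sets, the mean of a gene's probe sets, genes above the median level, limma-trend with robust moderation, the compared arrays alone and each array left out; a common median over the genes was added after seeing the data. Promoter windows were RefSeq's, build GRCm38.p6.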

Additional observations from a re-analysis of the deposited data

How the results depend on the processing

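Every member measured under an alternative had a positive change at 3 d of overload, 45 genes in each but 32 among genes above the median level. Fits on the compared arrays alone, which leave few degrees of freedom, called 7 at 10 d against no overload, 20 at 10 d against 3 d, 0 with the inhibitor at 10 d, 0 for inhibited 10 d overload against no overload and 12 at 10 d against 3 d under the inhibitor. Limma-trend with robust moderation called 9 with the inhibitor at 10 d and 24 for the mean inhibitor effect. The fit on 11090 genes above the median level (3.13), which held 32 of the 45, called 7 with the inhibitor at 10 d. The cause was not tested. The shares of all genes called by these alternative fits are not given here, so a gain in calls may not be particular to the members.

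With 1 pool left out, the lone pool being assumed to vary like the other groups, the calls ranged from 39 to 44 at 3 d, 12 to 24 at 10 d, 11 to 30 at 10 d against 3 d, 0 to 0 with the inhibitor at 3 d, 0 to 6 with it at 10 d, 0 to 16 for its mean effect, 0 to 0 for the difference of its effects, 27 to 36 for inhibited 3 d overload, 0 to 4 for inhibited 10 d overload, and 8 to 23 at 10 d against 3 d under the inhibitor. Ube2c with the inhibitor at 10 d ranged from -0.74 without the first inhibited 10 d pool to 0.16 without the second. A common median over the genes moved 3 d overload by 0.19 relative to no overload, with gene medians of 3.19 at 3 d and 3.00 without overload. That scaling called 43 members at 3 d, among 4862 of all genes, and 12 for the mean inhibitor effect, among 52. The main fit called 3881 of all genes at 3 d and 64 for the mean effect. The 45 genes averaged 2.51 to 2.52 without overload, and no detection calls were used, so that changes rest on low values there. No paired analysis was possible because the labels and columns carry no replicate numbers shared between groups.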
